A study of Mus musculus with 2 samples.

Results

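The genes described here are 40 that build or organise the contacts between intestinal epithelial cells: adherens junctions, tight junctions, desmosomes, a gap junction channel, the apicobasal polarity complexes and the protocadherins that tie microvilli together. Claudins were left out. The members were chosen by name, as rows of the full expression table whose gene symbol equals a listed symbol, which gave 35 of the 12631 rows. The other 5 listed members (Afdn, Nectin1, Nectin2, Nectin3 and Patj) stood in the table under the older symbols Mllt4, Pvrl1, Pvrl2, Pvrl3 and Inadl, which RefSeq gives as synonyms. Their values are reported beside the 35 and are marked as matched by older symbol.

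RNA sequencing compared small intestinal epithelium of 1 control mouse, labelled wild type, and 1 mouse labelled Myh9-/-. Both were C57BL/6 and 8 weeks old, both received tamoxifen daily for 5 days, and RNA was taken at day 5, so tamoxifen exposure was common to both groups. What drives the tamoxifen-induced deletion, and hence the cell type that lost the gene, is not stated in the labels. The epithelium was released from the opened intestine with EDTA and dithiothreitol, a preparation that separates cells from the basement membrane and from one another. Each group held 1 sample, so no value has a replicate error, no test was possible, and every difference is between these 2 libraries.

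Epithelial cells adhere through stacked belts of junctions below the apical surface. Tight junctions seal the space between cells. Adherens junctions couple cadherins and nectins through catenins and afadin to a belt of actin and non-muscle myosin II, and desmosomes couple desmosomal cadherins to keratin filaments. The PAR, Crumbs and Scribble complexes set where these belts form. Myh9 encodes the myosin IIA heavy chain, part of a non-muscle motor that puts tension on the junctional actin belt, and the comparison asks which junction transcripts differ soon after its loss.

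A level is the deposited expression value minus the 1 that had been added to it, whose unit no source used here gives, so levels are compared between samples and not between genes. A fold is the ratio of knockout to control on the scale of level plus 1, and a gene was counted as higher or lower at 1.4-fold, the threshold the labels state. A gene was included when the larger of its 2 levels reached 1, which kept 12152 rows and all 40 members. No read totals were given. Of all included genes, 15.9% were higher and 16.3% were lower, the shares against which the counts of markers below can be read. Myh9 was 99.5 in control and 13.6 in knockout epithelium, 6.89-fold lower. The 8 general epithelial markers, among them the member Epcam, summed to 6918 in control and 6921 in knockout epithelium. Of these, 2 were higher (Krt18 and Krt20) and 1 was lower (Cdx2). The even sum joins opposite differences: Krt18 was 250 and 488, and Krt19 was 2048 and 1791. Markers of other cell types differed between the libraries: 7 crypt-base stem cell markers summed to 727 and 172, with 5 lower. A sum is weighted toward its most abundant genes, and here Olfm4 alone was 619 and 113. The 7 Paneth cell markers summed to 13981 and 7854, with 6 lower, and the 9 T cell markers to 1047 and 486, with 8 lower. Among the Paneth cell markers Defa24 alone was 8707 and 4925. The 7 goblet cell markers summed to 16322.5 and 11982, with 3 lower, and the 4 tuft cell markers with a row to 16.3 and 8.08, with 3 lower. The B and plasma cell markers, of which 5 had a row, summed to 63.8 and 257.5, with 2 higher (Igha and Jchain). Of these sums Igha alone was 50.4 and 221. The 7 enteroendocrine markers summed to 239 and 277, with 4 higher and 1 lower, and the 7 macrophage and dendritic cell markers with a row to 52.6 and 45.3, with 2 higher and 3 lower. The 10 enterocyte markers summed to 16531 and 19449.6, with 1 higher and 2 lower. Fabp1 alone went from 3018 to 6049, while Lct was 279 and 81.0 and Sis was 662 and 434. Of 7 endothelial markers only Plvap had a row (0.50 and 1.80), and the endothelial cadherin gene Cdh5 had none. The 9 fibroblast and muscle markers, of which 7 had a row, summed to 26.8 and 29.7, with 3 higher. The part of these cell type differences in the junction values was not tested, and in bulk RNA fewer cells of a type and less RNA per cell cannot be told apart.

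Most junction and polarity genes stood at similar levels in both samples. Of the 35 members, 3 passed 1.4-fold upward in the knockout (Ppl, Pkp4 and Pard6b), 2 passed it downward (Tjp3 and Gjb1) and 30 lay between. The share past 1.4-fold was 14.3% of the members, against 32.3% of all included genes. Separately by direction, 15.9% of all included genes were higher and 16.3% were lower. With the 5 members matched by older symbol, which all lay between, the share was 5 of 40, or 12.5%. The median log2 fold of the 35 was 0.13 and that of all included genes was -0.0037, while the median size of the log2 fold without its sign was 0.26 and 0.31. Over all 40 members the median log2 fold was 0.06, with 21 above 0 and 19 below. The larger level of each of the 35 was at least 7.41, that of Ppl. When the larger level had to reach 20, 3 of 27 members (11.1%) passed 1.4-fold, against 30.8% of the 4321 genes of that level. At 2-fold, 1 member (Ppl) was higher and none was lower, against 4.49% and 4.28% of all included genes. When the knockout was rescaled, by totals that leave out the mitochondrial genome and the 20 most abundant genes, a multiplication by 1.08, the split became 6 higher and 0 lower, against 20.1% and 12.8% of all included genes. Marveld3, Cgn and Prkci were then past 1.4-fold, and Tjp3 and Gjb1 were not.

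**Figure D1:**
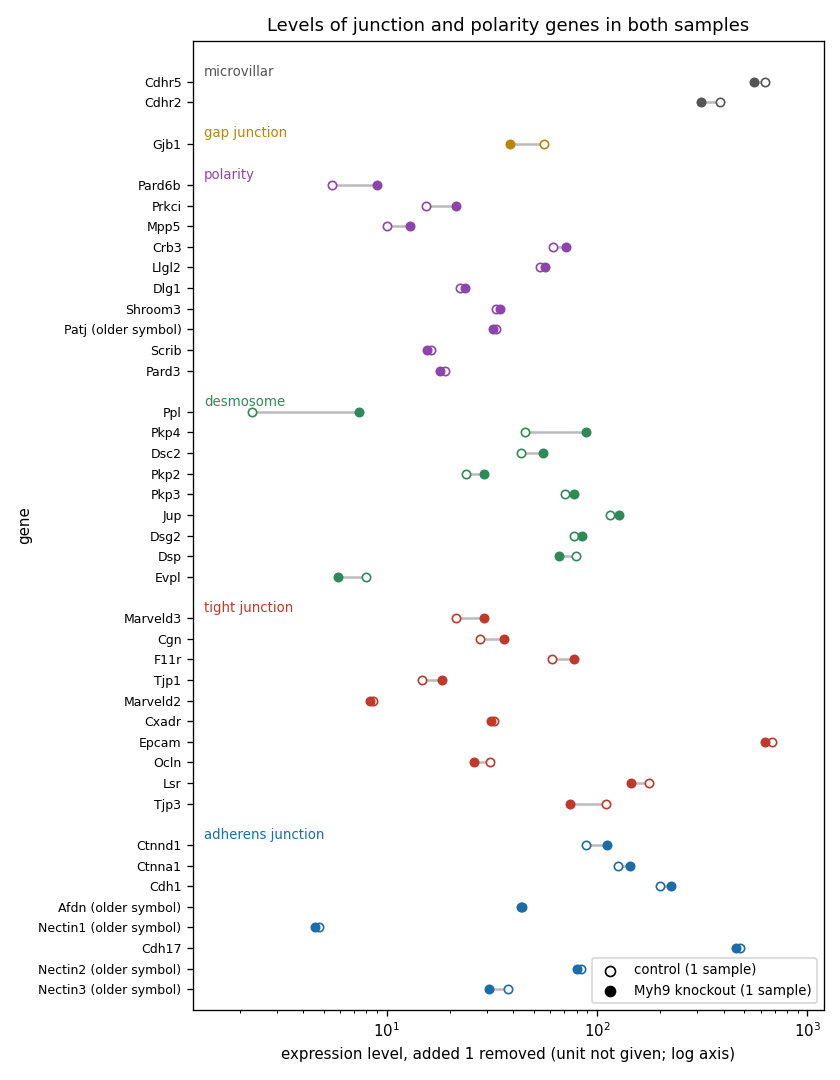
Expression level (log axis, unit not given, added 1 removed) of the 40 genes in the control (open circles) and the Myh9 knockout (filled circles), 1 sample each, grouped by class. The longest bars belong to Ppl (2.27 and 7.41) and Pkp4 (45.5 and 89.1), and most pairs of circles nearly touch.

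The desmosome class held the 2 genes with the largest folds. Ppl, periplakin, a plakin that links desmosomes and the cornified envelope to keratins in stratified epithelia, was 2.27 in control and 7.41 in knockout epithelium, 2.57-fold higher, a log2 fold of 1.36. It occupies chromosome 16, 5086291 to 5132421, minus strand, in GRCm38, the assembly that mm10 denotes. Its level was low in both libraries, and without depth no counting error can be given. Pkp4, an armadillo-repeat plakophilin found at adherens junctions as well as desmosomes and, in cultured human cells, at the cytokinetic midbody, was 45.5 and 89.1, 1.94-fold higher (chromosome 2, 59160850 to 59355208, plus strand). Its relatives were closer to even: Pkp2 was 23.7 and 29.2, and Pkp3 was 70.5 and 77.9.

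The core of the desmosome was closer to even. Dsp, desmoplakin, the plakin that carries the link to keratin, was 79.5 in control and 66.2 in knockout epithelium. Jup, plakoglobin, the armadillo protein shared by desmosomes and adherens junctions, was 115.5 and 127. The desmosomal cadherin genes Dsg2 and Dsc2, neighbours on chromosome 18, were 77.5 and 85.2, and 43.5 and 55.1. Evpl, envoplakin, which pairs with periplakin in the cornified envelope, was 8.00 and 5.84, so the plakin partners stood on opposite sides: Ppl past 1.4-fold and Evpl 1.32-fold the other way. Among the 9 desmosome genes there were 2 higher and 0 lower, and the class median of the log2 fold was 0.14. The share past 1.4-fold was 22.2%, against 32.3% of all included genes.

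Other desmosome-linked genes were read from a list that holds none of the members. Of 5 with a row, 2 were higher and 3 lay between, a share of 40% in a very short list, against 32.3% of all included genes. Kazn, kazrin, a cytoplasmic protein that binds periplakin, was 4.63 and 10.5, 2.04-fold higher. Plec, plectin, which ties keratin to hemidesmosomes and other anchors, was 35.0 and 54.2, 1.53-fold higher. Perp, a tetraspan desmosomal protein and p53 target, was 87.1 and 116, and Dst, a plakin of hemidesmosomes, was 11.02 and 15.0. Pkp1, the remaining gene, was 12.2 and 9.14. Under the rescaling by totals Perp and Dst also passed 1.4-fold upward, with log2 folds of 0.52 and 0.51. Over all 61 included genes of the list of other junction genes, the split was 8 higher and 6 lower. That is 23.0% past 1.4-fold, against 32.3% of all included genes. Under the rescaling by totals the split was 13 higher and 5 lower, against 20.1% and 12.8% of all included genes. Perp, Dst and Pkp1 were named after their values were seen.

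No adherens junction member passed 1.4-fold. Cdh1, E-cadherin, the classical cadherin of epithelia (chromosome 8, 106603351 to 106670246, plus strand), was 200.3 in control and 225 in knockout epithelium, a fold of 1.12. Ctnna1, the alpha catenin through which tension reaches actin and myosin, was 126 and 143, and Ctnnd1, a delta catenin that keeps cadherin at the surface, was 88.7 and 111. Their folds, 1.12 to 1.25, stayed above 1 under each of the 3 rescalings tried (by the median fold, the upper quartile and the totals). Cdh17, the liver-intestine cadherin, which lacks the catenin-binding tail, was 478 and 459. The median log2 fold of the 4 adherens genes matched by listed symbol was 0.18.

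The nectin branch, read from rows under older symbols, was also close to even. Afdn, afadin, the actin-binding adaptor of nectins, was 43.9 and 43.3. The nectin genes, which encode immunoglobulin-like adhesion receptors, were 4.78 and 4.58 for Nectin1, 84.3 and 80.5 for Nectin2, and 37.8 and 30.6 for Nectin3. All 4 had log2 folds below 0, and 3 of them moved above 0 under the rescaling by totals. Adding them changed the adherens median log2 fold from 0.18 to -0.03 over 8 genes, none past 1.4-fold.

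Among the other adherens genes, 14 of 23 had a row, with 2 higher and 1 lower. Ctnnb1, beta catenin, which binds both cadherin tails and Wnt-responsive transcription factors, was 251 in control and 364 in knockout epithelium, 1.45-fold higher. Its partners Cdh1 and Ctnna1 had folds of 1.12 and 1.14. Vezt, a transmembrane protein of cadherin junctions, was 10.3 and 6.50, 1.50-fold lower. Vcl, vinculin, which is recruited to alpha catenin under myosin tension, was 13.9 and 16.8, and Zyx, zyxin, another tension-responsive protein, was 44.4 and 50.9; both were named after their values were seen.

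**Figure D2:**
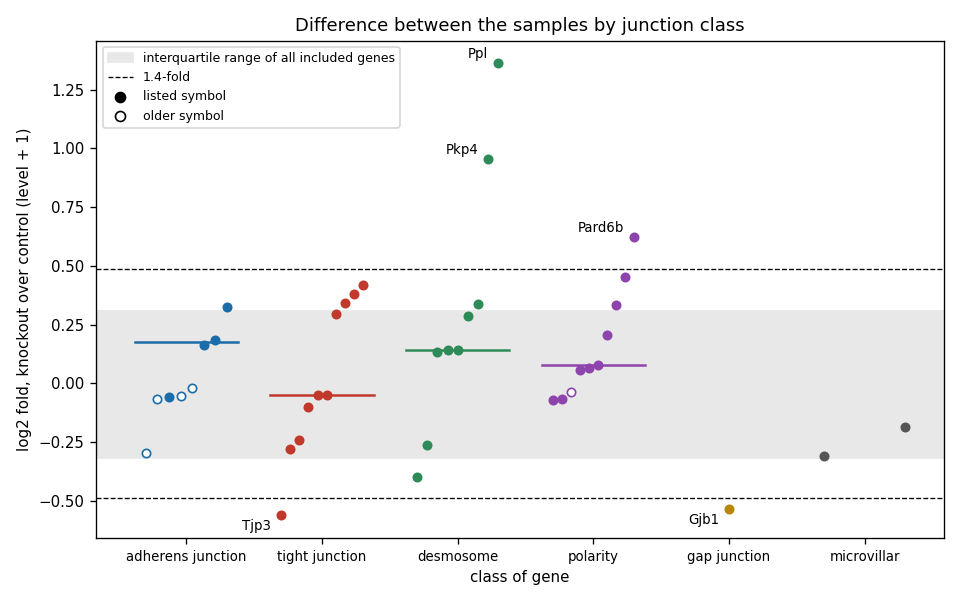
Log2 fold of knockout over control (level plus 1) for each gene by class, with filled circles for listed symbols, open circles for older symbols, a line at the median of the filled circles, dashed lines at 1.4-fold and a grey band over the interquartile range of all included genes. Ppl, Pkp4, Pard6b, Tjp3 and Gjb1 lie outside the dashed lines.

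Tight junction genes went both ways. Tjp3, a zonula occludens scaffold that links claudins and occludin to the cytoskeleton, was 111 in control and 74.8 in knockout epithelium, 1.47-fold lower, a log2 fold of -0.56 (chromosome 10, 81273207 to 81291581, minus strand). Its exons overlap those of Apba3 on the opposite strand, and whether counting used strand is not stated in any source used here. Apba3 was 24.4 and 25.7. Tjp1, the founding zonula occludens scaffold, was 14.7 and 18.3. These 2 paralogs thus had folds of 1.23 and 0.68, with Tjp1 above 1 and Tjp3 below 1 under the deposited scaling and under each rescaling.

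The proteins with a MARVEL membrane domain also split. Ocln, occludin, was 30.9 and 26.0, and Marveld2, tricellulin, which seals the points where 3 cells meet, was 8.64 and 8.33. Marveld3 was 21.4 and 29.0, a fold of 1.34. Lsr, an angulin that recruits tricellulin to those points, was 177 and 146, a log2 fold of -0.28. F11r, an immunoglobulin-like junctional adhesion molecule, was 61.0 and 77.6, and Cgn, cingulin, an adaptor that binds zonula occludens proteins and non-muscle myosin II, was 27.6 and 36.2, a fold of 1.30. Cxadr, the coxsackievirus and adenovirus receptor, was 32.5 and 31.4, and Epcam, a surface protein that stabilises claudins, was 680 and 633. Of the 10 tight junction genes, none was higher and 1 was lower, and their median log2 fold was -0.05, which became 0.05 under the rescaling by totals. Of 14 included genes in the list of other tight junction genes, 2 were higher and 1 was lower. Igsf5, a junctional adhesion molecule, was 32.7 and 54.7, 1.65-fold higher, and Magi1, a multi-PDZ scaffold, was 15.3 and 7.53, 1.91-fold lower.

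Of the polarity members 1 passed 1.4-fold, and it belongs to the PAR complex. Pard6b, a PAR scaffold that couples Cdc42 to atypical protein kinase C, was 5.49 in control and 8.99 in knockout epithelium, 1.54-fold higher, a log2 fold of 0.62 (chromosome 2, 168081004 to 168101203, plus strand). Prkci, the iota isoform of that kinase, was 15.3 and 21.4, a fold of 1.37, just under the threshold. Pard3, the scaffold that anchors the complex at the junction, was 18.9 and 17.9.

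Each of the 3 paralogs of these proteins that had a row passed 1.4-fold downward, of which Pard6a was named after its value was seen. Pard6g, a further paralog of Pard6b, had no row. Prkcz, the zeta isoform, was 46.1 and 25.6, 1.77-fold lower. Pard3b was 5.06 and 2.21, 1.89-fold lower, and Pard6a was 2.14 and 1.13, 1.48-fold lower at a low level. All 3 paralogs were also past 1.4-fold downward under the rescaling by totals, where Pard3 moved to a log2 fold above 0. Prkci and Prkcz encode closely similar kinases, and reads shared between paralogs could not be separated here.

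The Crumbs and Scribble complexes held no gene past 1.4-fold. Crb3, the small apical Crumbs protein of epithelia, was 61.8 and 71.3, its scaffold Mpp5 was 9.98 and 12.8, and Patj, matched by older symbol, was 33.0 and 32.1. On the basolateral side, Scrib was 16.3 and 15.5, Dlg1 was 22.4 and 23.5, and Llgl2 was 53.5 and 56.5. Scrib was the 1 member on chromosome 15, which also holds Myh9. Shroom3, which drives constriction of the apical actin belt with myosin II, was 33.2 and 34.6. The 9 polarity genes matched by listed symbol had a median log2 fold of 0.08. Of the other polarity genes, 21 were included, with 2 higher and 3 lower. Dlg5, a relative of Dlg1, was 4.00 and 7.25, 1.65-fold higher.

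**Figure D3:**
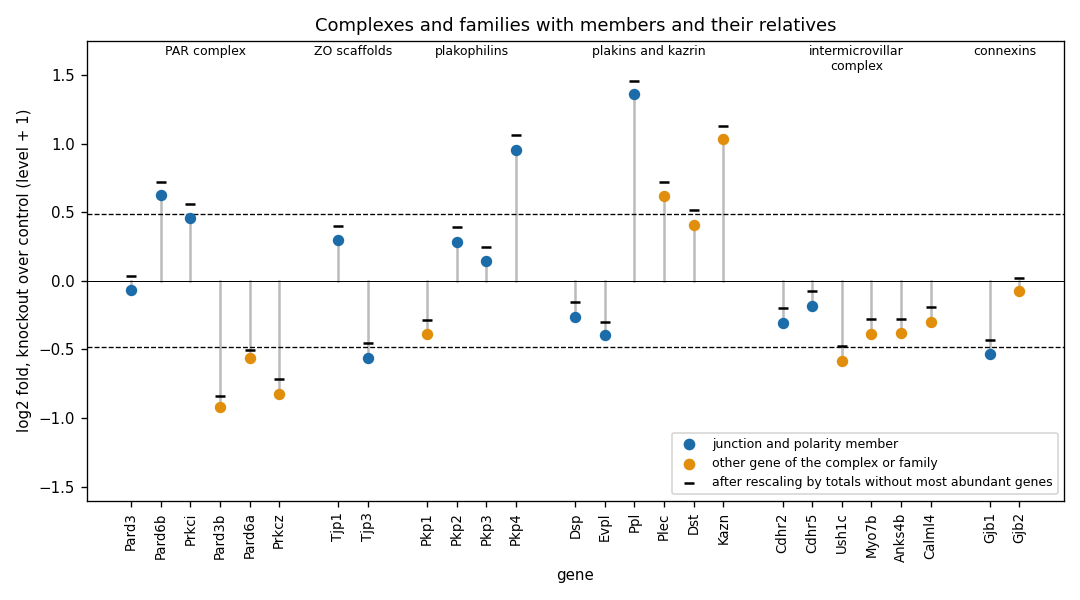
Log2 fold of knockout over control (level plus 1) for complexes and families that hold members (blue) and relatives outside the member list (orange), with dashes for the value after rescaling by totals without the most abundant genes. Pard6b and Prkci stand above 0 and Pard3b, Pard6a and Prkcz below it, and all 6 genes of the intermicrovillar complex stand below 0.

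Gjb1, a gap junction connexin that lets small molecules pass between neighbouring cells, was 56.2 in control and 38.5 in knockout epithelium, 1.45-fold lower, a log2 fold of -0.53 (chromosome X, 101376378 to 101385629, plus strand). Gjb2, another connexin gene, was 7.60 and 7.18, not past 1.4-fold, and its log2 fold moved above 0 under the rescaling by totals. It was named after its values were seen.

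Cdhr2 and Cdhr5 encode protocadherins that form the links between the tips of brush border microvilli. Cdhr2 was 385 in control and 311 in knockout epithelium, and Cdhr5 was 632 and 556, folds of 0.81 and 0.88. Their cytoplasmic partners, named after their values were seen apart from Ush1c, had folds of 0.67 to 0.81. Ush1c, the scaffold harmonin, was 148 and 98.6, 1.50-fold lower. Myo7b, the myosin motor of the complex, was 125 and 95.4, Anks4b was 31.9 and 24.3, and the light chain gene Calml4 was 276 and 224. All 6 genes of the complex were lower in the knockout, by 1.14-fold to 1.50-fold, and all 6 stayed below 1 under each rescaling. Among all included genes, 6118 of 12152 had a log2 fold below 0. Only Ush1c passed 1.4-fold, and it did not after the rescaling by totals. Vil1, the brush border actin bundler, was 962 and 808.

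**Figure D4:**
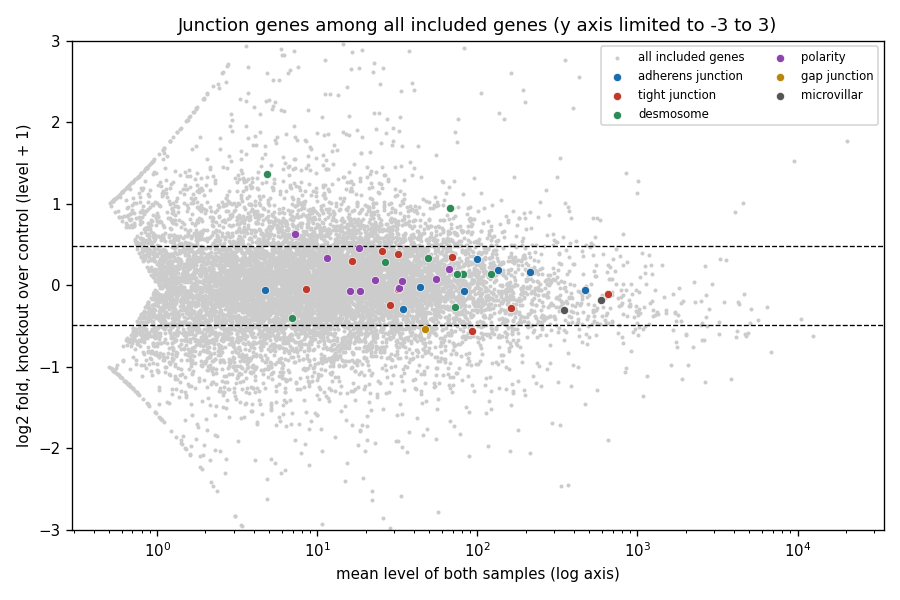
Log2 fold of knockout over control (level plus 1, y axis limited to -3 to 3) against the mean level of both samples (log axis) for all included genes (grey) and the 40 junction and polarity genes (coloured by class), with dashed lines at 1.4-fold. Outside the dashed lines lie 5 of the 40 coloured points.

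Epithelial regulators were read as a further list, made of transcription factors and the splicing regulators Esrp1 and Esrp2. Of 14 epithelial factors with a row, 4 were higher, 2 were lower and 8 lay between. That is 42.9% past 1.4-fold in a short list, against 32.3% of all included genes. Grhl2, a grainyhead factor known to activate Cdh1, was 4.78 in control and 7.38 in knockout epithelium, 1.45-fold higher. Klf4 was 34.2 and 51.3, and the ETS factor gene Ehf was 35.9 and 50.8, 1.41-fold higher. Cdx2, a determinant of intestinal identity, was 82.9 and 53.8, 1.53-fold lower, and Ovol2, a repressor of mesenchymal genes, was 10.7 and 6.65, 1.52-fold lower. Of 9 factors that repress junction genes in epithelial-mesenchymal transition, among them Snai1, Snai2, Zeb1, Zeb2 and Twist1, only Tcf4 had a row, at 11.5 and 11.2. The table omits genes that are low in both samples, so the absence of a row gives no level.

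Snail and Zeb repressors bind the E-box CAGGTG, which reads CACCTG on the opposite strand, so that motif was counted in RefSeq promoters (GRCm38.p6, 250 bases before to 50 after each annotated start). Of the members, 25 had a promoter that could be read, with 41 windows among them, some overlapping. At least 1 window held the motif in 17 of the 25 genes, or 68%, against 21.8% of 8813 included genes with a promoter. Taking only the first window of each gene, the shares were 52% and 18.2%. Members had more windows per gene (1.64 against 1.28), and the median GC content of the windows was 60.3% and 60.7%. Of the other motifs searched on both strands, the grainyhead motif AACCNGTT was in 1 of the 41 windows (that of Cgn) and in 2.09% of all 32851 promoters, the AP-1 motif TGANTCA in 3 windows and 7.81%, the TEAD motif GGAATG in 5 windows and 14.7%, and CAAAGTCCA, an HNF4 motif, in 0 windows and 0.475%. These other motifs were counted by window against all promoters, of median GC content 52.7%, and not by gene against included genes. Counted that way, the E-box was in 21 of the 41 windows and in 20.2% of all promoters. The promoters below belong to the 4 members past 1.4-fold that had a promoter in the table and to Ocln and Crb3, which define the tight junction and Crumbs classes by name. For genes with several windows, 1 holding E-box matches is shown, so the matches in it were part of the choice. Capitals mark CAGGTG or GGAATG on either strand.
Pkp4, chr2:59161619-59161918, plus strand: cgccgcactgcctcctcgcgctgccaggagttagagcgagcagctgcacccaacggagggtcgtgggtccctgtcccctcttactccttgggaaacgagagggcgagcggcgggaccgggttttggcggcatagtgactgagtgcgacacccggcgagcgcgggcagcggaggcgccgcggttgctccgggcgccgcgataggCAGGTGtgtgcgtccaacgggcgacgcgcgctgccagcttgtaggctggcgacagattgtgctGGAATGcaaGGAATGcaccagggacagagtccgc
Pard6b, chr2:168080754-168081053, plus strand: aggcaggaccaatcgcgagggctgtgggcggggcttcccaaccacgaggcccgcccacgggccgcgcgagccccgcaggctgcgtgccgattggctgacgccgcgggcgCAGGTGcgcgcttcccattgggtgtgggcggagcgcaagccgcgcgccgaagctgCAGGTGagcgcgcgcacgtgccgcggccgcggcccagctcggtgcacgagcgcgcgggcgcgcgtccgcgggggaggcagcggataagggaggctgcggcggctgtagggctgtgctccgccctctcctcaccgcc
Tjp3, chr10:81291218-81291517, minus strand: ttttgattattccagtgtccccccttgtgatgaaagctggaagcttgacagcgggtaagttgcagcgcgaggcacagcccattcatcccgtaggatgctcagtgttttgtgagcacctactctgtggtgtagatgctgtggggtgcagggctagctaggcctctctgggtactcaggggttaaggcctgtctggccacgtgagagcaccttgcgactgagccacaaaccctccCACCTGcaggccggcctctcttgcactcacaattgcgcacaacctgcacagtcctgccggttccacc
Gjb1, chrX:101383482-101383781, plus strand: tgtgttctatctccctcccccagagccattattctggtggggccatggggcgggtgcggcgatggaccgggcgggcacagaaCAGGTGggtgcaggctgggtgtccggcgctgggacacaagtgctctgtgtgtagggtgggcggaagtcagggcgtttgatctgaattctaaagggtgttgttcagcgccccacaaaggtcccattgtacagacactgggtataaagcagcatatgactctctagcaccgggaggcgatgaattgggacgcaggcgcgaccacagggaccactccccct
Ocln, chr13:100552449-100552748, minus strand: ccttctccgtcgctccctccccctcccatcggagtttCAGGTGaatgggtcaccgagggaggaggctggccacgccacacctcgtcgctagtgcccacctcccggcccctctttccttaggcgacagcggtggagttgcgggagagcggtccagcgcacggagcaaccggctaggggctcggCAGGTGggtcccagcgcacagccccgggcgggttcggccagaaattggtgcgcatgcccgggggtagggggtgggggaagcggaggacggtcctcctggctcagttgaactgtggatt
Crb3, chr17:57061951-57062250, plus strand: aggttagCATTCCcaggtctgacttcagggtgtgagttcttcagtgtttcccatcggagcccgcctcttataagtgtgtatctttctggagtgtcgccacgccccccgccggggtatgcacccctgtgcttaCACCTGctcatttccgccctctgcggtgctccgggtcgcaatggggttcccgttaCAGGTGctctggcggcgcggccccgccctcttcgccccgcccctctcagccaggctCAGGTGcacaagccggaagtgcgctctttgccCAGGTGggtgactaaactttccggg

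Crb3 held 4 E-box matches in its window, Pard6b and Ocln 2 each, and Pkp4, Tjp3 and Gjb1 1 each. Both the members higher in the knockout (Pkp4 and Pard6b) and those lower (Tjp3 and Gjb1) held the motif, as did Crb3 and Ocln, which lay between. The choice of windows set part of this: of the 4 windows of Gjb1 and the 2 of Pkp4, only the 1 shown held it. Jup, Prkci and Tjp1 were among the members without it. In Tjp3 the match began at position -17, with the annotated start at 0, in Pkp4 at -47, and in Pard6b at -141 and -86. A match describes the letters of the window and not the binding of a factor, the motifs were chosen after the levels were seen, and the shares were not tested.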

How the data were processed

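The submitters' processing notes name the tools HISAT2 and StringTie and the build mm10, with no version. The deposited table gives 1 signal value per gene and sample, an expression level plus 1 whose unit and low-level filter no source used here states. The fold change deposited by the authors is the ratio of the 2 signal values, equal in every row to within 1.22e-07. The second sheet, which repeats genes that are no members, was not used.

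That 1 was added was inferred from the values, of which the smallest is 1. It was removed, and log2 folds used a pseudocount of 1. Columns were matched to samples by the animal number shared with the sample title, and groups came from the genotype label. With 1 sample per group no model was fitted. Every listed member is named, and from each other list the 5 highest and 5 lowest genes reaching a level of 5 could be named, while exceptions are marked. Vil1, Plvap and the other genes named from the marker lists were also chosen after their values were seen. The members and lists were chosen with earlier results of these data known. Some genes of these lists enter the counts and are not reported by name here. Gene positions came from GENCODE M21 and promoters from RefSeq. Depth is unknown, so precision cannot be given. The calling and scaling steps were checked on simulated data without noise, which checks the arithmetic and not the reliability of calls from unreplicated libraries. Alternatives were other pseudocounts, level filters, a 2-fold threshold, 3 rescalings, other class assignments and older symbols. Python 3.11.15, numpy 2.4.6 and pandas 2.3.3 were used.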

Additional observations from a re-analysis of the deposited data

How the results depend on the processing

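The counts of 3 higher and 2 lower members were the same with a pseudocount of 0.1 or none, no level filter, a level of at least 5, rescaling by the median fold or the upper quartile, and the older symbols. Rescaling by totals without the most abundant genes gave 6 higher and 0 lower. It moved the median log2 fold of the members to 0.24, and those of the adherens, tight, desmosome and polarity classes to 0.28, 0.053, 0.25 and 0.19. It multiplied every knockout level by 1.08, which moved the median of all included genes to 0.09. The 2-fold threshold left 1 higher and 0 lower. A level of at least 20, chosen after seeing the data, left 1 higher, since Ppl and Pard6b were then not counted. The older symbols, also added after seeing the data, moved the adherens median to -0.035. Moving Jup and Pkp4, or Shroom3, to the adherens class moved no class median by more than 0.1. No gene past 1.4-fold changed direction in any of these settings. No paired analysis was possible because each group held 1 sample, and for the same reason no sample could be left out. Without depth or replicates, no fold here can be set against measurement error.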
